A study of Saccharomyces cerevisiae with 6 samples.

Results

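The 33 genes described here encode the subunits of the yeast proteasome, taken by systematic name from a fixed list of 5 subcomplexes among the 6692 genes counted. The list holds 7 subunits of the alpha ring, 7 of the beta ring, 6 ATPases, 9 lid subunits and 4 other subunits of the base. All 33 were in the count tables and all 33 passed the filter on low counts, with at least 70 reads in every library. Each identifier carried the expected gene symbol in the R64 annotation, and no gene span of the 33 overlapped another gene annotated there.

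RNA was sequenced from 6 libraries of Saccharomyces cerevisiae to ask which transcripts change when cells lose Rio1, an essential protein kinase of small ribosomal subunit maturation. By their strain fields, all 6 came from W303 cells of mating type a with the degron allele RIO1-AID. The same fields list PADH1-OsTIR1, an F-box protein gene read from the constitutive ADH1 promoter. All grew exponentially in YPD at 23 °C. The strain fields of both groups also list marker alleles of URA3, ADE2, LEU2, TRP1, HIS3 and CAN1. Auxin at 500 µM was present for 1 h before the 3 depleted libraries were made and absent from the 3 controls. By title and series text the controls are wild type, but their own strain field lists the degron genotype as well. No library with auxin and intact Rio1 was analysed here, so an effect of auxin and an effect of Rio1 loss cannot be told apart. If the controls are wild type, the degron allele and OsTIR1 differ between the groups as well. An effect of that genotype could then not be told apart from the others. The degron acts on the protein. The RIO1 mRNA was higher after auxin, with 63.1 to 66.6 CPM in the 3 controls against 94.0 to 130.2 CPM, which does not check the depletion.

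Library sizes ran from 683896 to 1671136 gene counts. Values are CPM (counts per 1000000 of TMM-scaled library size), so they are relative amounts: a change in the total RNA of a cell was not measured and cannot be told apart from a change of the other transcripts. Open reading frames inside the rDNA (the YLR154 rows) made up 4.12% of all gene counts of depleted library 2. Leaving these rows out changed the call of none of the 33 subunit genes. Of the genes that mark mating type a, STE2 lay between 327 and 430 CPM and STE6 between 476 and 587 CPM, whereas the alpha pheromone gene MF(ALPHA)1 had no count in 5 libraries and 0.89 CPM in control library 2. The others of this check were MFA2 (132 to 326 CPM), BAR1 (109 to 162) and MFA1 (2.87 to 10.7) for mating type a, and STE3 (0.89 to 10.0), MF(ALPHA)2 (0 to 7.92) and SAG1 (13.4 to 39.3) for alpha.

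The proteasome degrades proteins that carry ubiquitin chains. Its core particle is a barrel of stacked rings in which an outer ring of alpha subunits gates the entry and an inner ring of beta subunits holds the protease sites. The regulatory particle caps the barrel: the lid removes ubiquitin, the base captures the substrate, and a hexamer of ATPases unfolds it and feeds it into the core. In budding yeast the activator Rpn4 binds a short promoter element of these genes, the proteasome-associated control element, and Rpn4 is itself a short-lived proteasome substrate.

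That element, with the letters GGTGGCAAA, was searched on both strands of the 500 bases before the annotated start codon of 6000 protein-coding genes of R64, the assembly known as sacCer3. It was present for 27 of the 33 subunit genes and in 1.65% of all 6000 windows, or 99 windows with these 27 among them. The element is known as one of proteasome genes. Its presence here therefore describes the windows and is not a result of these data. The following stretches show 200 bases, from 250 to 51 before the start codon, for the member with the largest change in each subcomplex. They are written 5′ to 3′ along the gene, with the element in capitals (in PRE6 it lies on the opposite strand and is read as TTTGCCACC). The sequences are those of RefSeq R64, the S288C reference, and not of W303.

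PRE6, chrXV:255087-255286, plus strand: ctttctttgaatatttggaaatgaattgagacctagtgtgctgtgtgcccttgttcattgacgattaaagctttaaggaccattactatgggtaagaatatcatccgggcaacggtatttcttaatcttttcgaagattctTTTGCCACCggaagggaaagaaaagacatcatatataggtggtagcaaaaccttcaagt
PRE1, chrV:177585-177784, plus strand: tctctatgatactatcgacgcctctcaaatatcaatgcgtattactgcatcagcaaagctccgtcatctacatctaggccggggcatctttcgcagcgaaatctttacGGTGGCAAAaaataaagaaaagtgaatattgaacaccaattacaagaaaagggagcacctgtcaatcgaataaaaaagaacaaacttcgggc
RPT6, chrVII:411337-411536, minus strand: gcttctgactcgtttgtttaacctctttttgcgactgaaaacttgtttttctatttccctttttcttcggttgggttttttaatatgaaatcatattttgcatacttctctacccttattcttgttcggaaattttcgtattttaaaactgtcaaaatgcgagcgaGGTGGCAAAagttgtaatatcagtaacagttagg
RPN6, chrIV:286746-286945, minus strand: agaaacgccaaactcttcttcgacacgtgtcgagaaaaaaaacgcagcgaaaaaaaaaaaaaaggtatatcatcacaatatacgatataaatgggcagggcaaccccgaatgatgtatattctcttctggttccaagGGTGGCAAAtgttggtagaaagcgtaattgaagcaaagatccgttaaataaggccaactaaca
RPN2, chrIX:220751-220950, minus strand: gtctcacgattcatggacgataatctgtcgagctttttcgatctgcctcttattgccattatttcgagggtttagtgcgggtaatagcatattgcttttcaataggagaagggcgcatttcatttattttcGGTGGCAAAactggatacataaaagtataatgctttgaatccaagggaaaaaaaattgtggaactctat

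Each of the 27 genes held a single copy. On either strand, positions count from the base of the copy farthest from the start codon. This base lay 84 to 183 bases before the start codon, with a median of 120. On the strand of the gene lay 19 copies, and 8 lay on the opposite strand. All 6 ATPase genes, 6 of 7 alpha ring genes, 6 of 7 beta ring genes, 7 of 9 lid genes and 2 of 4 base genes carried it. The 6 genes without the exact letters were PRE5, PUP1, RPN8, SEM1, RPN10 and RPN13. The looser form NGTGGCNAA, which takes in every exact copy, was found for all 33, against 6.77% of all 6000 windows. Within the span of 84 to 183 bases, 1.93% of all windows held this looser form. That span was set by the positions in the 33 genes, so all 33 lie in it. They are counted in both shares. The 29-base windows around the copies in those 6 genes show how they depart from GGTGGCAAA. They are written along the strand that carries the element, with its 9 letters in capitals.

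PRE5, chrXIII:901552-901580, plus strand: cctattatagAGTGGCAAAattaaaaatt
PUP1, chrXV:631891-631919, minus strand: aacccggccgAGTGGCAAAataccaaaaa
RPN8, chrXV:817085-817113, minus strand: gggatacctcAGTGGCAAAtcgttactca
SEM1, chrIV:1202007-1202035, plus strand: tagtgctatgGGTGGCGAAcgtggtgggc
RPN10, chrVIII:498968-498996, minus strand: tgtaaattccGGTGGCGAAaacccgcctg
RPN13, chrXII:965656-965684, minus strand: ttattcgcgaGGTGGCGAAagctttgcta

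The search with NGTGGCNAA left only the 2 bases written N free, so a change at any other base could not be found. Within that limit, each of the 6 differed from the element by a single base, of only 2 kinds. Counting from 1 at the 5′ end of GGTGGCAAA, the change was G1A in PRE5, PUP1 and RPN8 and A7G in SEM1, RPN10 and RPN13. The other motifs searched were a form of the heat shock element that Hsf1 binds, made of the triplets TTC, GAA and TTC with NN between them, and TCCGNGGA, a form of the element that Pdr1 and Pdr3 bind. Neither was present before any of the 33 genes, against 1.48% and 2.92% of all windows, which says only that these letters are absent from these windows.

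Every one of the 33 subunit mRNAs rose after Rio1 depletion. By edgeR's quasi-likelihood test with Benjamini-Hochberg adjustment over all 5195 tested genes, 33 of 33 were higher at an adjusted p under 0.05 and none was lower. Over all tested genes 28.3% were called, 14.1% higher and 14.1% lower, a split of 734 against 735 that became 1761 against 306 when libraries were scaled by their totals only. The 3 depleted libraries lay above the 3 controls for all 33 genes, as they did for 20.6% of all tested genes. The adjusted p ranged from 3.18e-08 for PRE4 to 0.00114 for RPN13.

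The size of the rise was similar across the complex. Log2 fold changes ran from 0.66 for RPN8 to 1.33 for RPN6 with a median of 0.99, or 1.98-fold, while the median of all tested genes was 0.01. Standard errors were 0.10 to 0.14 (n = 3 per group), so neighbouring subunits in this order did not differ beyond their error. Of all tested genes, 5.06% rose by more than the median subunit and 10.7% by more than the smallest. Of the 33 genes, 15 reached 2-fold, against 4.77% of all tested genes. The 33 genes together took 0.658% ± 0.025 of the gene counts in controls and 1.66% ± 0.038 in depleted libraries (SD, n = 3 each). These shares are of unscaled library totals and differ 2.52-fold, whereas the summed CPM of the 33 genes, with TMM scaling, differed 2.02-fold. When the rise was tested against a minimum of 1.5-fold, 25 of 33 passed, against 204 of all 5195 tested genes called higher. PRE8, PUP2, PRE5, RPN5, RPN8, RPN11, SEM1 and RPN13 did not pass.

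**Figure D1:**
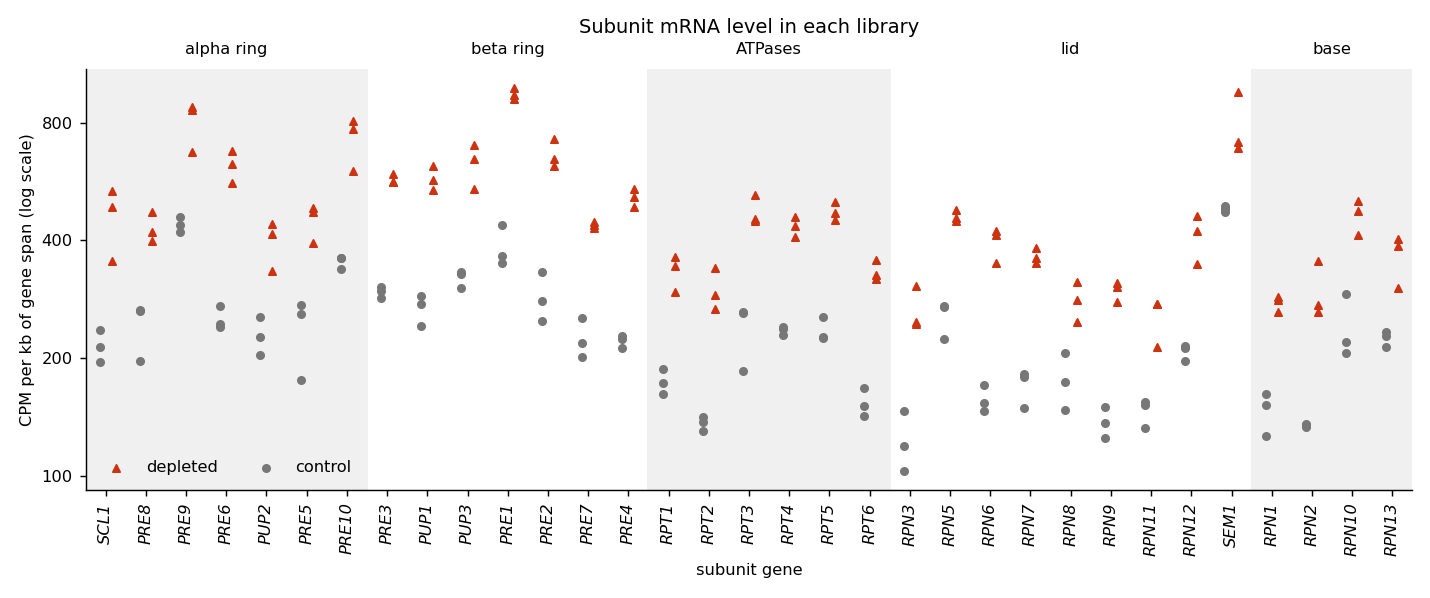
Level of each of the 33 subunit mRNAs in CPM per kilobase of gene span (log axis), by subcomplex, with 1 point for each library (3 control circles, 3 depleted triangles). For every gene the 3 depleted libraries lie above the 3 controls.

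**Figure D2:**
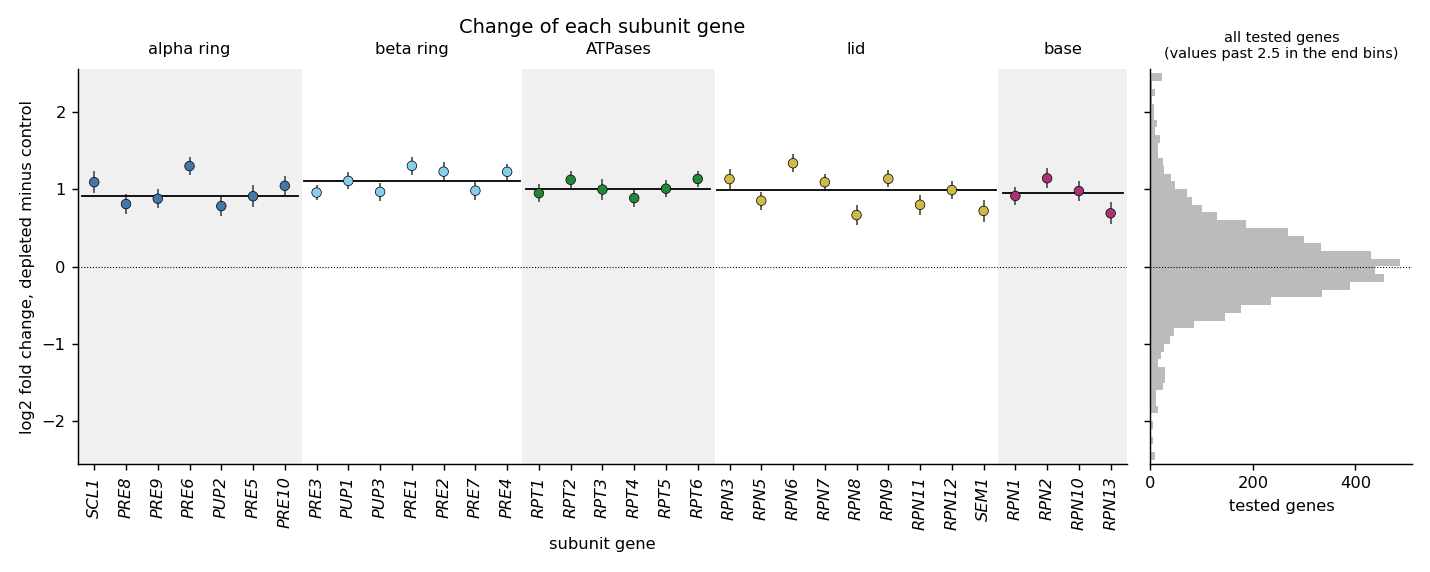
Log2 fold change (depleted minus control) of each subunit gene with its standard error, by subcomplex, with a black line at each subcomplex median, beside the distribution of all 5195 tested genes on the same axis. The subunits lie between 0.66 and 1.33, and the median of all tested genes is 0.01.

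In the alpha ring, whose subunits form the gated entry of the core, the median log2 fold change was 0.91. The largest rise was in PRE6 (YOL038W, chromosome XV, 255337 to 256101), with 184, 208 and 187 CPM in the controls (libraries 1 to 3, here and below) and 519, 480 and 430 CPM after depletion. This was a log2 fold change of 1.30 ± 0.11 (SE; edgeR adjusted p = 3.66e-08). The smallest was in PUP2 (YGR253C, chromosome VII, 998358 to 999140), at 159, 178 and 199 CPM in controls and 324, 344 and 261 CPM after depletion, with a log2 fold change of 0.78 ± 0.13 (SE; edgeR adjusted p = 0.000103). The groups did not overlap for either gene, and depleted library 3 was the lowest of its group for both. Between them lay SCL1 (1.09), PRE10 (1.04), PRE5 (0.91), PRE9 (0.88) and PRE8 (0.81). PRE9 encodes the one core subunit that yeast can live without.

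In the beta ring all 7 genes rose by 0.96 or more on the log2 scale, with a median of 1.11, the highest of the 5 subcomplexes. PRE2 (YPR103W, chromosome XVI, 732349 to 733212) encodes the subunit with the chymotrypsin-like site. Its level was 287, 242 and 215 CPM in controls and 535, 629 and 558 CPM after depletion, a log2 fold change of 1.23 ± 0.12 (SE; edgeR adjusted p = 3.01e-07). PUP1 (YOR157C, chromosome XV, 630966 to 631751), for the trypsin-like site, went from 227, 190 and 216 CPM to 423, 447 and 487 CPM, a log2 fold change of 1.11 ± 0.11 (SE; edgeR adjusted p = 2.24e-07). PRE3 (YJL001W, chromosome X, 435163 to 435926), for the caspase-like site, had the smallest change of the ring, 0.96 ± 0.10 (SE; edgeR adjusted p = 5.44e-07). Its values were 227, 233 and 217 CPM in controls and 452, 432 and 430 CPM after depletion. The 3 protease subunits thus covered 0.96 to 1.23, and the groups did not overlap for any of them. Of the subunits without a protease site, PRE1 (YER012W, chromosome V, 177835 to 178431) changed most, from 218, 261 and 209 CPM to 548, 585 and 563 CPM (1.30 ± 0.12, SE; edgeR adjusted p = 5.81e-08). PRE4, PRE7 and PUP3 followed with log2 fold changes of 1.22, 0.98 and 0.97.

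The 6 ATPase genes were the most even group, with log2 fold changes of 0.88 to 1.13 and a median of 1.00. RPT6 (YGL048C, chromosome VII, 410069 to 411286) rose most, from 204, 184 and 173 CPM in controls to 397, 389 and 434 CPM (1.13 ± 0.11, SE; edgeR adjusted p = 1.22e-07). RPT4 (YOR259C, chromosome XV, 812395 to 813708) rose least, from 316, 311 and 301 CPM to 604, 536 and 573 CPM (0.88 ± 0.11, SE; edgeR adjusted p = 4.06e-06). The groups did not overlap for either gene. RPT2 stood at 1.12, RPT5 at 1.01, RPT3 at 0.99 and RPT1 at 0.95.

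The lid held both the largest and the smallest change of the complex, around a median of 0.99. RPN6 (YDL097C, chromosome IV, 285391 to 286695), a scaffold subunit of the lid, went from 200, 222 and 191 CPM to 551, 457 and 538 CPM, a log2 fold change of 1.33 ± 0.12 (SE; edgeR adjusted p = 4.2e-08). RPN8 (YOR261C, chromosome XV, 815915 to 816931), the inactive partner of the deubiquitinase Rpn11, went from 149, 210 and 177 CPM to 286, 318 and 251 CPM, a log2 fold change of 0.66 ± 0.13 (SE; edgeR adjusted p = 0.000752). RPN11 (YFR004W, chromosome VI, 153393 to 154313), whose product cuts the ubiquitin chain from the substrate, was also among the smaller changes, from 139, 122 and 142 CPM to 253, 253 and 197 CPM (0.80 ± 0.13, SE; edgeR adjusted p = 0.000137). For RPN8 the lowest depleted library was 41.9 CPM above the highest control, the closest approach of the groups among these 3 genes. The remaining large lid subunits were RPN9 (1.13), RPN3 (1.13), RPN7 (1.09), RPN12 (0.99) and RPN5 (0.85). SEM1 (YDR363W-A, chromosome IV, 1202128 to 1202397) encodes a very small protein that also belongs to other complexes. It went from 128, 132 and 130 CPM to 186, 259 and 193 CPM, a log2 fold change of 0.72 ± 0.14 (SE; edgeR adjusted p = 0.000647).

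Of the other base subunits, RPN2 (YIL075C, chromosome IX, 217863 to 220700), a large scaffold, rose most. Its level was 382, 378 and 384 CPM in controls and 775, 742 and 1005 CPM after depletion (1.14 ± 0.13, SE; edgeR adjusted p = 1.34e-06). Depleted library 3 was the highest of its group here, unlike in PRE6, PUP2, RPN8 and RPN11. The ubiquitin receptor gene RPN13 (YLR421C, chromosome XII, 965090 to 965560) rose least, from 100.5, 107 and 109 CPM to 182, 190 and 143 CPM (0.69 ± 0.14, SE), and it had the fewest reads of the 33 in CPM in every library. RPN10, for another intrinsic ubiquitin receptor, rose by 0.98 and the scaffold gene RPN1 by 0.91. The base median was 0.94.

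The core and the regulatory particle differed little in their change. The median log2 fold change was 1.01 over the 14 core genes and 0.99 over the 19 regulatory genes, a difference of 0.02 that ran from -0.03 without depleted library 1 to 0.08 without control library 1. The ranges overlapped, at 0.78 to 1.30 for the core and 0.66 to 1.33 for the regulatory particle. Mean levels per kilobase of gene span gave a core to regulatory ratio of 1.44, 1.44 and 1.41 in the controls. The spans leave out untranslated ends, and core genes are short, at 597 to 867 bases against 2982 for RPN1. Levels of genes of unlike length thus compare only roughly, and the part of length in the ratio was not tested. In depleted libraries the ratio was 1.56, 1.54 and 1.51, so the groups did not overlap, at means of 1.43 ± 0.021 and 1.54 ± 0.023 (SD, n = 3 each). That is a shift of 1.08-fold, small beside the 1.93-fold rise of the regulatory mean itself.

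By subcomplex, the mean level per kilobase went from 281 ± 15.9 to 555 ± 59.7 CPM per kb in the alpha ring and from 286 ± 12.7 to 620 ± 14.9 in the beta ring (SD, n = 3 each). Both rings had nearly the same mean in controls. The alpha to beta ratio was 0.89, 1.02 and 1.04 in controls and 0.97, 0.95 and 0.77 in depleted libraries. The groups overlapped, and the lowest value was that of depleted library 3, where the alpha mean was 487 against 590 CPM per kb in both other depleted libraries. The ATPases went from 195 ± 6.43 to 391 ± 8.70 CPM per kb, the lid from 206 ± 7.15 to 391 ± 19.1 and the base from 186 ± 4.51 to 350 ± 15.2 (SD, n = 3 each).

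**Figure D3:**
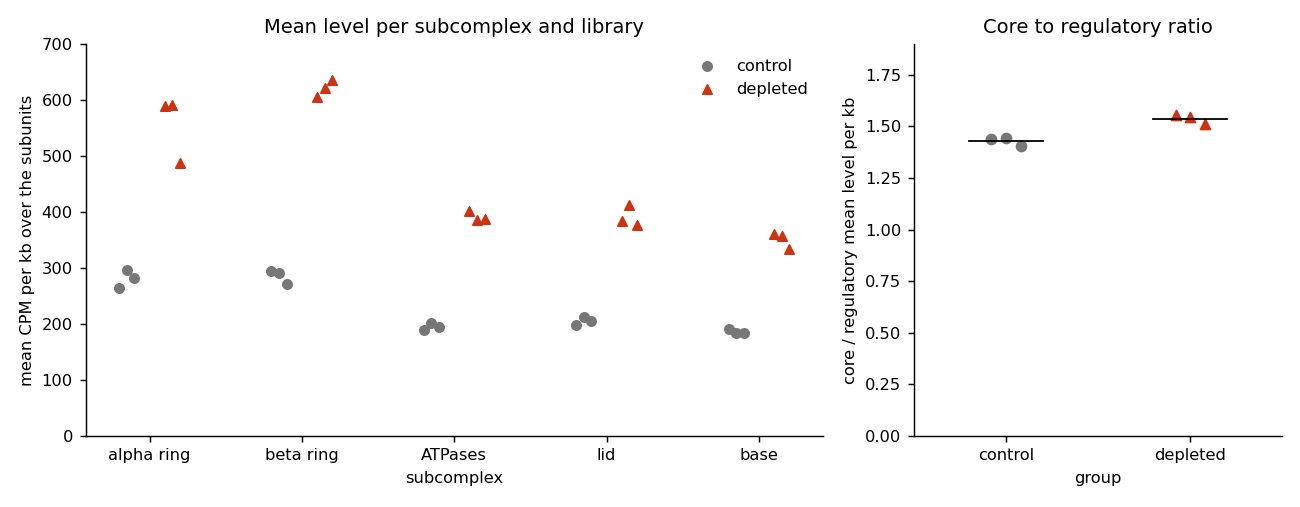
Left, mean level over the subunits of each subcomplex in CPM per kilobase for each library. Right, the ratio of the core mean to the regulatory mean for each library, with a line at the group mean. The ratio lies between 1.41 and 1.44 in controls and between 1.51 and 1.56 in depleted libraries.

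The order of the subunits by level was nearly kept. Across the 33 genes the log2 level per kilobase in controls and in depleted libraries had a Pearson r of 0.94 and a Spearman rho of 0.92, values across genes of the same libraries that share their gene length. By the mean over controls SEM1 was the most abundant per kilobase, at 473, 490 and 480 CPM per kb. It also has the shortest span, 270 bases, and the part of length in its rank was not tested. RPN3 was the least abundant, also by the mean, at 146, 119 and 103 CPM per kb. In CPM, RPN3 (YER021W, chromosome V, 196948 to 198519) went from 230, 187 and 162 in controls to 479, 385 and 388 after depletion. The SD of the log2 level per kilobase over the 33 genes was 0.51 to 0.52 in control libraries and 0.48 to 0.54 in depleted libraries. The complex was thus about as uneven at the mRNA level after the rise as before it. The change of a gene showed little relation to its control level per kilobase (Pearson r = -0.17, Spearman rho = -0.19, n = 33 genes). Both values use the same control libraries, whose noise enters them with opposite sign.

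The 27 genes with the exact element had log2 fold changes of 0.78 to 1.33 and a median of 1.01. The 6 with a single-base variant ran from 0.66 to 1.11 with a median of 0.81. RPN8, RPN13 and SEM1, the genes with the 3 smallest changes, were all among these 6, whereas PUP1, with the G1A variant, lay above the median of the complex. RPN13 and SEM1 also had the fewest reads on average in both groups, and the SEs of these 2 changes were 0.14. The part of the element in these values was not tested.

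**Figure D4:**
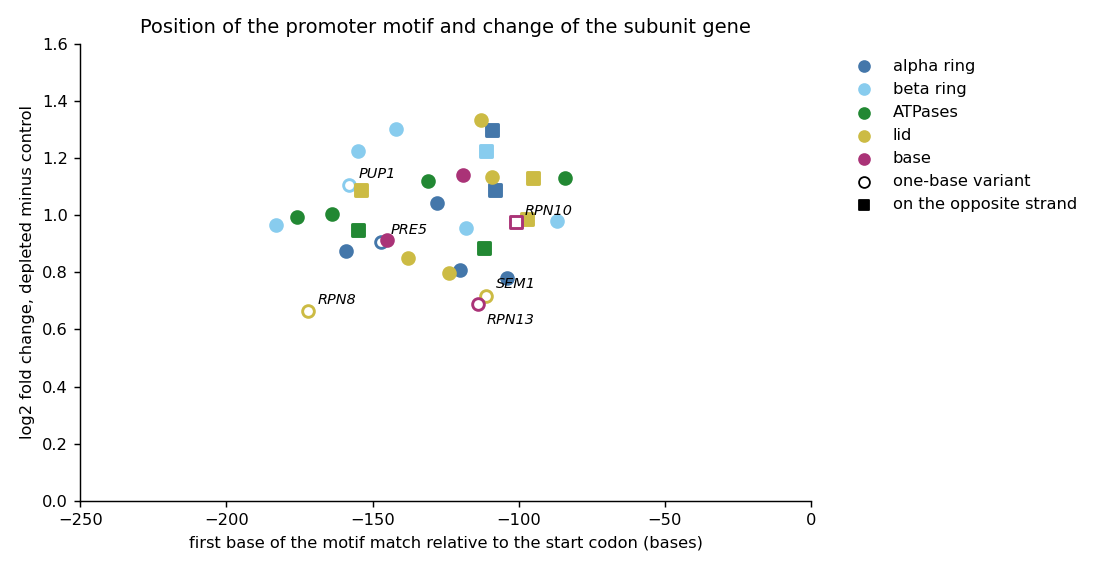
Log2 fold change of each subunit gene (depleted minus control) against the position of its promoter element in bases before the start codon. Filled symbols mark the 27 genes with the exact element, open symbols the 6 named genes with a single-base variant, and squares elements on the opposite strand. All copies lie 84 to 183 bases before the start codon, and RPN8, RPN13 and SEM1 lie lowest.

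RPN4, the activator gene, rose too. Its level was 118, 98.5 and 107 CPM in controls and 186, 192 and 199 CPM after depletion, and the groups did not overlap. Its log2 fold change was 0.85 ± 0.13 (SE; edgeR adjusted p = 5.12e-05), below the median of the subunits, and it was not called when tested against 1.5-fold (adjusted p = 0.0843). Its own 500-base window held neither form of the proteasome element, but held both the heat shock element form and TCCGNGGA.

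Of 9 genes for chaperones that assemble the proteasome, 2 were higher (22.2%, against 14.1% of all tested genes) and 1 was lower (11.1%, against 14.1%), and their median log2 fold change was 0.30. With library totals only, which called 33.9% of all tested genes higher and 5.89% lower, 4 of the 9 were higher and 0 lower, since ADD66 (adjusted p = 0.00643) and NAS6 (0.0140) passed the test there and POC4 did not. PBA1, which helps to build the alpha ring, rose from 37.3, 25.7 and 34.2 CPM to 78.1, 72.5 and 71.3 CPM (1.20 ± 0.21, SE; edgeR adjusted p = 0.000237). UMP1, a maturation factor of the beta ring, rose by 0.77, a call lost without depleted library 2 (adjusted p = 0.111), control library 1 (0.0592) or control library 2 (0.073). POC4, of the other alpha ring chaperone pair, was lower by 0.91 in the full fit (log2 fold change -0.91), a call lost without control library 3 (adjusted p = 0.241) or depleted library 3 (0.0756), with library totals only (0.112) and in DESeq2 (0.0682). ADD66 (0.42), NAS6 (0.33), RPN14 (0.30), HSM3 (0.20), NAS2 (-0.07) and IRC25 (-0.08) did not pass the test. Fewer reads lay behind these 9 genes, with 12 to 138 CPM against 100.5 to 1005 CPM for the subunits, and their standard errors were larger, at 0.20 to 0.36. None of the 9 windows held the exact element, and that of NAS6 held the looser form.

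Of 5 proteins that bind the assembled proteasome, 4 had higher mRNAs, against 14.1% higher over all tested genes. ECM29 rose by 2.37 on the log2 scale, more than any subunit, and BLM10, UBP6 and HUL5 by 1.44, 0.90 and 0.79. FUB1, an inhibitor of the core, did not pass the test (0.22). All 7 genes for the ubiquitin shuttles and for Cdc48 with its cofactors rose, with a median of 1.09 and a range from 0.75 for CDC48, the ATPase that extracts ubiquitinated proteins, to 1.80 for the shuttle gene DDI1. With library totals only, where 33.9% of all tested genes were higher, the counts were also 4 of 5 and 7 of 7. The exact element was present for ECM29 and CDC48, and the looser form for 4 of the 5 and 6 of the 7.

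Genes that start next to a subunit gene in the opposite direction were examined next. Of the 33 subunit genes, 19 had such a head-to-head neighbour with its start codon within 1000 bases, and 16 of these neighbours were tested. Of the 16, 6 were higher (37.5%, against 14.1% of all tested genes) and 2 lower (12.5%, against 14.1%). With library totals only, 11 were higher (68.8%, against 33.9%) and 1 lower (6.25%, against 5.89%), since TGL3, OST1, YTH1, GPN2 and RET2 were called higher there and PMT1 was not called. In the reported fit the median log2 fold change of the 16 was 0.39, in a range from -1.34 to 1.29. RPL11A, a gene of the large ribosomal subunit 600 bases from PRE2, fell from 1111 to 439 CPM on average (-1.34, edgeR adjusted p = 1.3e-07). PMT1, a protein mannosyltransferase gene 363 bases from RPN6, was lower by 0.58 (log2 fold change -0.58), which became -0.26 with library totals only (adjusted p = 0.0731). The subunit genes across these intervals, PRE2 and RPN6, rose by 1.23 and 1.33. The neighbours that rose were YPI1 next to RPN11 (1.29), ALG13 next to RPT6 (0.94), DCK1 next to RPN13 (0.84), GCD1 next to RPT4 (0.59), FUI1 next to PRE7 (0.46) and NOP14 next to RPN5 (0.34). The calls of ALG13, FUI1 and NOP14 were lost in DESeq2 (adjusted p = 0.0645, 0.0717 and 0.111). They were also lost when single libraries were left out, namely any library but depleted 2 for ALG13 (adjusted p up to 0.118), depleted 1, control 2 or control 3 for FUI1 (up to 0.0925), and depleted 2, depleted 3, control 1 or control 3 for NOP14 (up to 0.26).

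**Figure D5:**
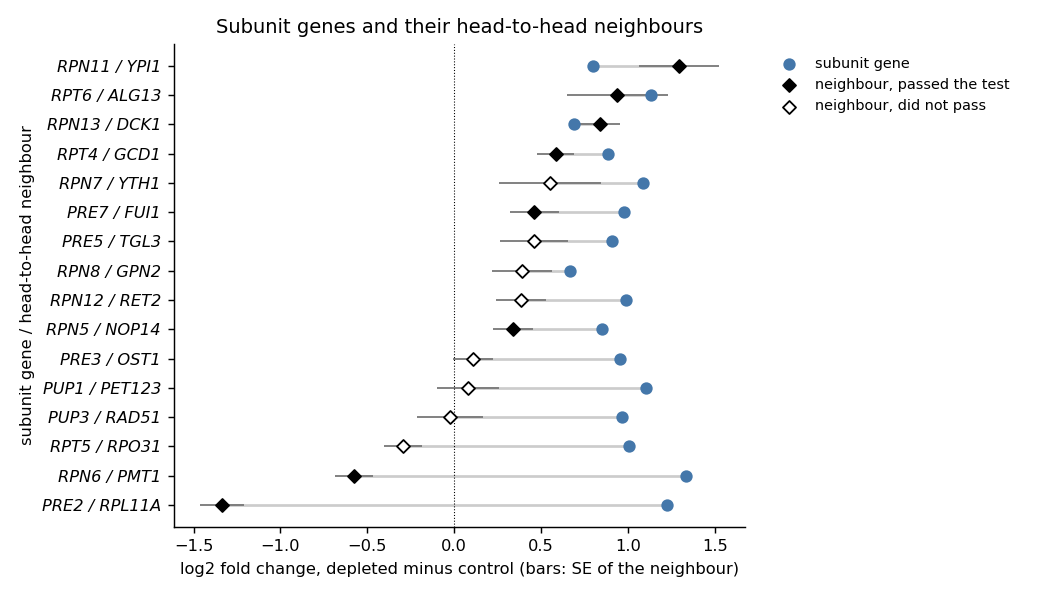
Log2 fold change (depleted minus control) of subunit genes (circles) and of their 16 tested head-to-head neighbours (diamonds, filled where the test was passed, with standard errors). The subunits lie between 0.66 and 1.33 and the neighbours between -1.34 and 1.29.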

How the data were processed

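Each library has a deposited file of raw read counts for 6692 genes, plus 5 HTSeq summary rows that were left out of library sizes. The submitters' processing notes list HTSeq, DESeq and TopHat2 2.0.8 and the build sacCer3. Their roles and settings, strand option included, and the gene annotation used for counting are not stated there. Reads with more than 1 alignment, which were 45.2% to 65.9% of the entries, have a summary row of their own and are not in the gene counts. Libraries were made from rRNA-depleted total RNA, per the labels' protocols.

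The test was that of edgeR 4.0.16 under R 4.3.3 (TMM, filterByExpr with a minimum count of 10 and total of 15, then glmQLFit and glmQLFTest with group as the only term), with Benjamini-Hochberg adjustment over 5195 genes and a threshold of 0.05. The fit was tested on simulated data with known changes. Standard errors were taken as the size of the log2 fold change over the root of F. CPM use TMM-scaled sizes, and 1 read is worth 0.60 to 1.46 CPM before scaling. Gene spans, strands and sequences come from RefSeq R64, which matched 6008 identifiers. The other 684 have no coordinates here, so overlaps with them were not checked. DESeq2 1.42.0 and limma 3.58.1 (voom) were alternatives. Libraries of a group differed by more than sampling noise over all genes (chi-square per degree of freedom 2.40 to 9.75). Over the 33 subunit genes the values ran from 1.02, near sampling noise, for control libraries 2 and 3 to 6.66 for depleted libraries 2 and 3. Separate cultures are not stated in the labels, so the spread that p-values measure may be technical.

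The subunit list, the other gene lists and the tests were chosen with earlier results of these data known. All 33 subunits are named. Values in every library are given for the largest and smallest change in each subcomplex, the protease subunits, RPN11, and the most and least abundant per kilobase. Of the other lists, the largest change and each gene that did not pass are named, and so are the head-to-head neighbours that passed. The windows of the 6 single-base variants, the 500-base search window, and the other genes named were chosen after their values were seen.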

Additional observations from a re-analysis of the deposited data

How the results depend on the processing

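All 33 subunits were called higher, at log2 fold changes of 0.54 to 1.65 and adjusted p of at most 0.0102, with RLE size factors, library totals only, no count filter, a mean of at least 50 counts, DESeq2, limma-voom, the replicate block, without the YLR154 rows and without any single library. With library totals only their median rose to 1.30, while the median of all tested genes rose from 0.01 to 0.33. Tested against 1.5-fold, 25 subunits and 394 genes in all (204 higher, 190 lower) were called, and RPN4 (0.85) was not (adjusted p = 0.0843). The SD over subunits in controls was 0.524 with coding length in place of gene span. Without single libraries, 1120 to 1353 genes were called in all and the subunit median was 0.96 to 1.00. Same-numbered libraries did not deviate together (correlations of -0.05, 0.00 and 0.07), nor did each correlate best with its own number, so the numbers are not taken as pairs; with the replicate block 33 subunits and 1497 genes were called, with a subunit median of 0.99, a core minus regulatory difference of 0.02 and RPN4 at 0.85.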

Other observations

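Beyond the subunits, 64 other tested genes held GGTGGCAAA within 500 bases of the start codon. Of these, 31 were higher (48.4%, against 14.1% of all tested genes) and 6 lower, and the median of the 64 was 0.47 on the log2 scale. Leaving out the head-to-head neighbours of subunit genes, whose windows can hold the copy of the subunit gene, 27 of 55 (49.1%) were higher. In 17 of the 64 the element lay 84 to 183 bases before the start codon, the span seen in the subunit genes. Of these 17, 14 were higher (82.4%, against 14.1% of all tested genes) and 1 lower, with a median of 0.93. In the other 47, 17 were higher (36.2%) and 5 lower, with a median of 0.25. Head-to-head neighbours were not left out of this split. The 17 included YPI1 and GCD1, both higher, whose copies are those of the subunit genes RPN11 and RPT4. The split by position was made after the positions in the subunit genes were seen, and the difference was not tested. These counts are of the reported fit only. They were not repeated with library totals only, which called 33.9% of all tested genes higher.

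Among the 17 were UBI4, the polyubiquitin gene (2.78), a value that is uncertain because near-identical ubiquitin repeats occur in several genes, NAB2, which encodes a poly(A)-binding protein of the nucleus (1.63), PRD1, a metallopeptidase gene (1.22), SGT2, for a cochaperone of tail-anchored protein delivery (0.98), CCT6, for a subunit of the cytosolic chaperonin (0.69), and UBA1, the ubiquitin-activating enzyme gene (0.41). ECM29, CDC48 and the neighbours YPI1 and GCD1 were in this group too. Also higher were YBR284W (2.94), ACS1, an acetyl-CoA synthetase gene that went from 13.2 to 52.0 CPM on average, ABZ1, of aminobenzoate synthesis (0.93), and AHC2, of a histone acetyltransferase complex (0.91). GSF2 and BDF2 did not pass the test (0.31 and 0.29). EPL1, a histone acetyltransferase subunit gene, was the one that was lower (-0.65, edgeR adjusted p = 0.00948).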
